A study of Mus musculus with 18 samples.

Results

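The 50 ribosome biogenesis genes described here were taken from a list of symbols of nucleolar proteins and of RNA polymerase I, and each symbol was matched to its Ensembl mouse gene identifier. This list, and that of other pathway genes used further on, were chosen with earlier results of these data known. All 50 were found among the 43629 rows of the count table, and all 50 were among the 11964 genes with enough counts to be tested, so the filter on low counts removed no member. By role, 9 encode RNA polymerase I subunits and factors that act with it, 3 nucleolar phosphoproteins, 4 box C/D small nucleolar ribonucleoproteins (snoRNPs), 4 box H/ACA snoRNPs, 15 small subunit assembly factors and 15 large subunit assembly factors. Gene expression was measured by QuantSeq, which reads each mRNA near its 3′ end, in 18 libraries of AT3 cells, a mouse mammary carcinoma line grown in culture. The study asked how catalytic inhibition of the lysine acetyltransferases P300 and CBP changes steady-state and IFNγ-induced transcription, and used A-241 and A-485, which it describes as chemically distinct inhibitors. The 6 conditions had 3 libraries each. Cells received DMSO vehicle, A-241 at 250 nM or A-485 at 1000 nM for 3 h, or the same 3 agents for 1 h followed by a further 2 h with recombinant IFNγ at 1 ng/mL. The inhibitors were used at 1 dose each, and the doses differ. The labels call the 3 libraries of a condition biological triplicates and the study's methods call them technical, so the p values below measure the spread between libraries, which may be technical.

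Ribosome biogenesis starts in the nucleolus, where RNA polymerase I transcribes the long precursor of ribosomal RNA. Small nucleolar RNAs held in box C/D and box H/ACA particles guide the methylation and pseudouridylation of that precursor, and a large set of assembly factors folds, cleaves and exports the small and large subunits. MYC is known to promote the transcription of many of these genes through the E-box CACGTG, and the pathway is highly active in growing tumor cells.

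Promoters were examined first, since this E-box is the sequence by which MYC is known to bind. RefSeq promoters on GRCm38.p6, from 250 bases before to 50 bases after the start of transcription, were found for 45 of the 50 genes, and Fbl, Rrp12, Rrs1, Npm1 and Bop1 had none in the table. CACGTG, which reads the same on both strands, occurred in 9 of the 45 and in 8.09% of the 27025 genes of the table. The 9 were Ltv1, Mybbp1a, Nop2, Pes1, Rrn3, Tsr1, Utp20, Utp4 and Wdr43. The windows below are those of the 3 with the E-box that were called lower with A-241, described further on, and of 2 with the E-box whose levels differed little, with the E-box in capitals.
Tsr1 (chr11:74898092-74898121, plus strand): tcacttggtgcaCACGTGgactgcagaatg
Wdr43 (chr17:71616220-71616249, plus strand): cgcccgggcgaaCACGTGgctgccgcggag
Utp20 (chr10:88826765-88826789, minus strand): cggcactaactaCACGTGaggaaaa
Rrn3 (chr16:13780639-13780668, plus strand): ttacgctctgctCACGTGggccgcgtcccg
Utp4 (chr8:106893643-106893672, plus strand): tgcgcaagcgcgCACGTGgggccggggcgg
The E-box began 25, 18, 38 and 16 bases after the annotated start in Tsr1, Wdr43, Utp20 and Utp4, and 48 bases before it in Rrn3, which has another 215 bases before the start. A match is a description of the letters and not of binding. CCGGAAG, the core of sites for ETS factors, searched on both strands and not overlapping CACGTG, occurred in 35.6% of the 45 and in 9.93% of all genes. CCAAT, on both strands, was found in 33.3% of the 45 against 41.1% of all genes, and TATAAA, likewise on both strands, in 6.67% against 15.7%. The 27025 genes include many with too few counts to be tested here, while all 45 were tested. These shares therefore set unlike groups of genes side by side.

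Library totals were 3417167 to 7856830 counts, of which the 50 genes held 45635 to 97592, and the lowest count of any of the 50 in any library was 12. Levels are given as CPM, counts scaled to a common library size, with TMM factors computed from the bulk of genes. The epithelial keratins Krt8, Krt18, Krt14 and Krt5 and the adhesion genes Epcam and Cdh1 had counts in every library, while Cldn4 had 0 to 2 counts. The leukocyte markers summed to 1.84 to 20.3 CPM per library, scaled to total counts without TMM factors, with Adgre1 at 0 throughout. Of the 18 libraries, 2 stood apart from the others of their condition. In DMSO replicate 3 and IFNγ replicate 2, the noncoding RNA Gm42418, followed here as a measure of RNA quality, took 20.1% and 23.0% of counts, against 7.11% to 16.2% elsewhere. Relative to the mean of the other DMSO libraries, DMSO replicate 3 was more than 2-fold higher for 4 of the 50 genes and more than 2-fold lower for 6. IFNγ replicate 2, against the other IFNγ libraries, was more than 2-fold higher for 7 and lower for 4. By this cut Dkc1, Pes1, Bop1 and Ltv1 were high and Gar1, Taf1d, Nip7 and Ppan low in both. The median SD of the 50 genes was 0.38 (log2 CPM) with DMSO and 0.39 with IFNγ alone but 0.12 to 0.15 in the other conditions. Without these 2 libraries, the averaged A-241 value moved by more than 1.5 times and more than 0.1 on the log2 scale, or turned sign by more than 0.1, in 30 of the 50 genes, and the averaged A-485 value did so in 40. The values of named genes that moved in this way, or whose call changed, are given both ways below.

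Summed over the 50 genes, expression was lower in cells treated with A-241 but not in those given A-485. The sum was 12708, 12464 and 18062 CPM with DMSO, 9575, 10319 and 10020 CPM with A-241, and 13641, 14406 and 12369 CPM with A-485. With IFNγ it was 11968, 19096 and 11659 CPM, in those given A-241 and IFNγ 10365, 9952 and 10458 CPM, and in those given A-485 and IFNγ 12020, 12294 and 12584 CPM. All 6 libraries with A-241 lay below all 12 without it, and those with A-485 overlapped with their controls. The high values of DMSO replicate 3 and IFNγ replicate 2 are those of the libraries that stood apart. Without Ncl and Npm1, which contribute much of the sum, it was 4829 ± 136 CPM (SD, n = 3) with A-241 and 6908 ± 319 CPM with A-485, against 7443 ± 2029 CPM with DMSO. As a share of all counts in a library, the 50 genes took 0.975% to 1.11% with A-241 and 1.16% to 1.53% without it. In bulk RNA, fewer cells of a type and less RNA per cell cannot be told apart. Scaled to total counts without TMM factors, the 7 epithelial markers also summed to less with A-241 (1022 to 1042 CPM) than with DMSO (1502 to 1754 CPM). With A-485 they summed to 1108 to 1208 CPM. With IFNγ they were at 1181 to 1378 CPM alone, 1071 to 1135 CPM with A-241 and 1060 to 1186 CPM with A-485. The summed mesenchymal markers, scaled likewise, were at 438 to 505 CPM with A-241, 612 to 743 CPM with DMSO and 555 to 596 CPM with A-485. With IFNγ these were at 563 to 827 CPM alone, 474 to 600 CPM with A-241 and 603 to 716 CPM with A-485. The part of either in these results was not tested.

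**Figure D1:**
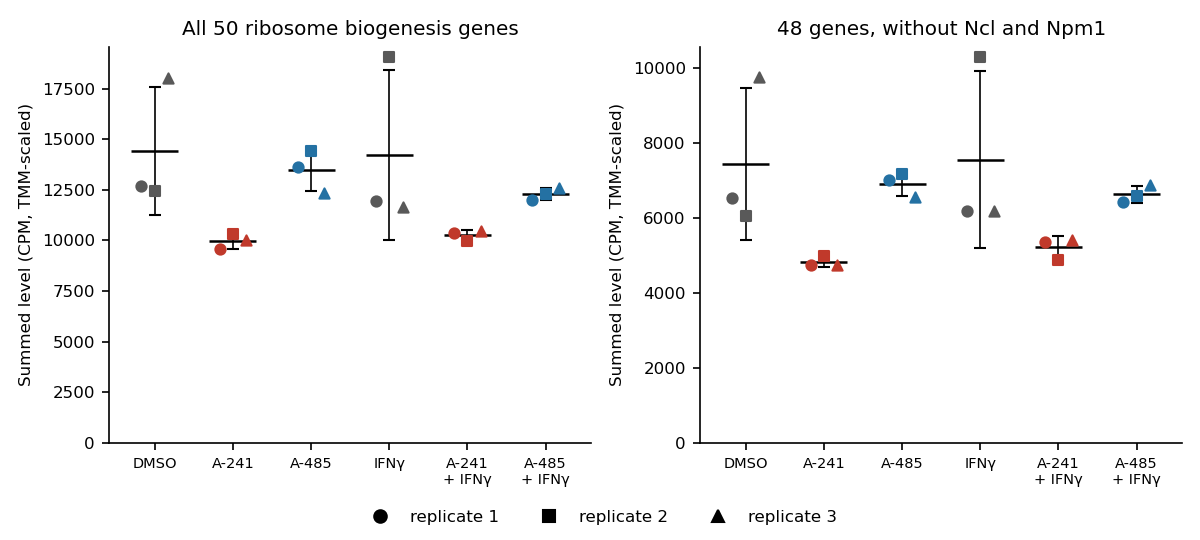
Summed level (CPM, TMM-scaled) of the ribosome biogenesis genes in each library, for all 50 genes (left) and without Ncl and Npm1 (right), with the mean (horizontal line) and SD (bars) of the 3 libraries of each condition. The 6 libraries with A-241 sit between 9575 and 10458 CPM on the left, below all others, and DMSO replicate 3 and IFNγ replicate 2 are the 2 highest points.

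Single genes were tested with edgeR's quasi-likelihood test, with Benjamini-Hochberg adjustment over the 11964 genes, and genes with adjusted p under 0.01 were called. Without IFNγ, A-241 lowered 5 of the 50 genes and raised 0, where 3.53% of all genes tested were called lower and 0.827% higher. The 5 were Tsr1, Polr1b, Rrp1b, Gnl3 and Nolc1. At an unadjusted p under 0.05, 23 were lower and 0 higher, against 13.1% and 10.2% of all genes, and DESeq2 and limma-voom called 8 and 3 lower and 0 higher. Shares over all genes by DESeq2 and limma-voom are not given, here or below, so their counts are not set against all genes. In 23 of the 50 every A-241 library lay below every DMSO library, against 13.4% of all genes, and in 1 every one lay above, against 13.3%. The median log2 fold change of the 50 was -0.36 and that of all genes tested 0.01, with a range from -1.43 (Dkc1) to 0.29 (Polr1c). Without DMSO replicate 3 and IFNγ replicate 2, 10 were called lower, where 6.52% of all genes were, and Dkc1 was at -0.46 and Polr1c at -0.05. The count of 5 depends on single libraries, and was 3 without DMSO replicate 1 and 1 without any single A-241 library. Fitted on the 6 libraries compared alone, 0 were called.

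With IFNγ present, the comparison of A-241 with its own control drew on a separate set of 6 libraries. A-241 lowered Rrp1b, Tsr1 and Gnl3 and raised 0 of the 50, where 3.54% of all genes were called lower and 0.543% higher. At an unadjusted p under 0.05, 18 were lower and 0 higher, against 12.0% and 8.17% of all genes, and DESeq2 and limma-voom called 7 and 3 lower and 0 higher. In 17 of the 50 the A-241 libraries lay wholly below those with IFNγ alone, against 12.1% of all genes, and in 1 wholly above, against 11.6%. The median log2 fold change was -0.40, against -0.02 for all genes, and 44 of the 50 values were negative, as were 51.6% over all genes. The 3 called with IFNγ were also called without it, and 39 of the 50 had a negative value in both comparisons, as did 39.5% of all genes. Without DMSO replicate 3 and IFNγ replicate 2, 7 were called lower, where 5.88% of all genes were, and the median was -0.23. The count of 3 was 1 without IFNγ replicate 1, IFNγ replicate 3 or A-241 with IFNγ replicate 3, 2 without A-241 with IFNγ replicate 1, and 0 without A-241 with IFNγ replicate 2. It was also 0 when the 6 libraries compared were fitted alone.

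The effect of A-241 averaged over cells without and with IFNγ uses 12 libraries, and its SE had a median of 0.16 over the 50 genes, against 0.22 without IFNγ and 0.22 with it. By it 10 of the 50 genes were called lower and 0 higher, where 7.05% of all genes were called lower and 3.39% higher. At an unadjusted p under 0.05, 28 were lower and 0 higher, against 18.8% and 14.9% of all genes, and DESeq2 and limma-voom called 22 and 8 lower and 0 higher. The 10 were Tsr1 (-1.09), Wdr43 (-1.07), Rrp1b (-1.04), Polr1b (-0.97), Rrp12 (-0.96), Gnl3 (-0.91), Nolc1 (-0.76), Utp20 (-0.72), Rrs1 (-0.66) and Gtpbp4 (-0.53), with the log2 fold change in brackets. The calls thus fell on 4 large subunit factors, 4 small subunit factors, 1 RNA polymerase I subunit and 1 phosphoprotein, and on 0 of the 8 snoRNP genes. The median of the 50 was -0.31 and that of all genes 0.00. Scaling to total counts in place of TMM shifted the median of all genes to 0.13 and their calls from 843 lower and 406 higher to 684 and 575, and relative to that shift the 50 genes, at a median of -0.19 with 8 called lower, were still lower. Without DMSO replicate 3 and IFNγ replicate 2, 15 were called lower, where 9.76% of all genes were, and the median was -0.26. The 5 gained were Nop58, Nop16, Wdr12, Nip7 and Ppan, of which Nop16 and Nip7 are named after their values were seen, and 0 were lost. Fitted on the 12 libraries compared alone, 6 were called. In 10 of the 50 genes, all 6 libraries with A-241 lay below all 12 others, against 1.65% of all genes. These were Nolc1, Dkc1, Wdr12, Rrp12, Rrp1b, Polr1b, Wdr43, Gnl3, Gtpbp4 and Tsr1.

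**Figure D2:**
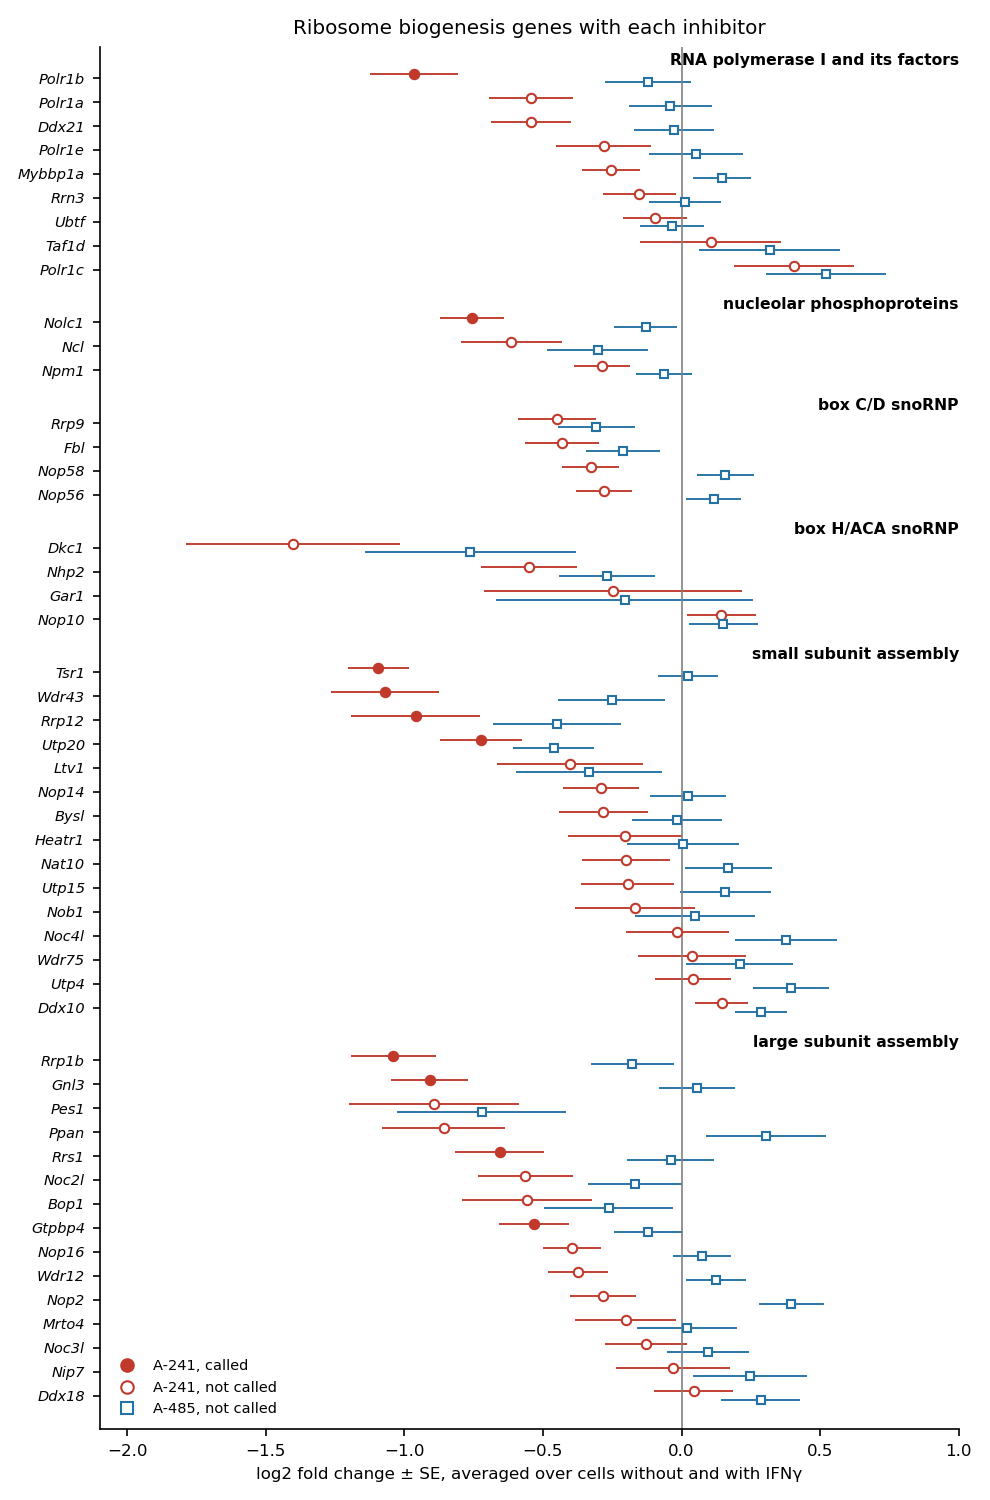
Log2 fold change ± SE of each of the 50 genes with A-241 (red circles) and A-485 (blue squares), each averaged over cells without and with IFNγ, grouped by role and ordered by the A-241 value. Filled symbols are the 10 genes called at an adjusted p under 0.01, all of them with A-241, and 23 of the 50 A-485 values are negative. Both series share their control libraries.

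Of the 9 genes of RNA polymerase I and its factors, the core subunit Polr1b (chr2:129100995-129126594, plus strand) was the 1 called with A-241. Polr1b stood at 61.8, 49.2 and 84.5 CPM with DMSO, 27.7, 29.8 and 26.1 CPM with A-241 and 55.5, 49.7 and 64.2 CPM with A-485. Polr1b levels with IFNγ were 45.6, 71.3 and 47.5 CPM with IFNγ alone, 39.7, 26.7 and 33.7 CPM with A-241 and IFNγ and 56, 45.1 and 57.8 CPM with A-485 and IFNγ. The 6 libraries with A-241 lay at 26.1 to 39.7 CPM, below each of the 12 others. The log2 fold change was -1.22 (SE 0.23, adjusted p = 0.00234) without IFNγ and -0.71 (SE 0.22, adjusted p = 0.0645) with it by edgeR with Benjamini-Hochberg adjustment, and the averaged value was -0.97 (SE 0.16, adjusted p = 0.000394). The call without IFNγ was lost when A-241 replicate 1, 2 or 3 was left out (adjusted p = 0.0142, 0.0112 and 0.0162) or when the 6 libraries compared were fitted alone, while the averaged call was kept in each of 12 such fits (adjusted p 0.000189 to 0.00174). Polr1a, which encodes the largest subunit of the same enzyme, stood at 46.7, 44.9 and 61.4 CPM with DMSO, 34.8, 34.6 and 34.5 CPM with A-241 and 34.5, 54.1 and 52.4 CPM with A-485. Polr1a levels with IFNγ were 37.4, 63 and 42 CPM with IFNγ alone, 36.7, 33.8 and 27.2 CPM with A-241 and IFNγ and 43.5, 51 and 50.4 CPM with A-485 and IFNγ. The A-241 libraries lay below the matched controls in both settings, but the averaged log2 fold change of -0.54 (SE 0.15, adjusted p = 0.0187) did not pass the threshold.

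The initiation factors of RNA polymerase I were not called. Rrn3, which carries the enzyme to the promoter of ribosomal DNA, stood at 129, 121 and 154 CPM with DMSO, 138, 97.9 and 112 CPM with A-241 and 130.0, 125 and 144 CPM with A-485. Rrn3 levels with IFNγ were 105, 178 and 119.9 CPM with IFNγ alone, 132, 124 and 123 CPM with A-241 and IFNγ and 129, 143 and 142 CPM with A-485 and IFNγ. The groups overlapped, and the averaged log2 fold change with A-241 was -0.15 (SE 0.13, adjusted p = 0.444) by edgeR, with a 95% interval of -0.41 to 0.11. It was 0.006 (adjusted p = 0.972) without the 2 libraries that stood apart. Ubtf, which binds along ribosomal DNA, stood at 177, 159.7 and 183 CPM with DMSO, 153, 167 and 169 CPM with A-241 and 183, 192 and 193 CPM with A-485. Ubtf levels with IFNγ were 142, 193 and 193 CPM with IFNγ alone, 180.2, 146 and 163 CPM with A-241 and IFNγ and 128, 187 and 145 CPM with A-485 and IFNγ. These groups overlapped too, at an averaged -0.10 (SE 0.12, adjusted p = 0.59) with an interval of -0.32 to 0.13. Polr1c, a subunit shared with RNA polymerase III, was among the few with a positive value. It stood at 128, 88.9 and 45.2 CPM with DMSO, 134, 94.1 and 92.5 CPM with A-241 and 91.2, 108 and 143 CPM with A-485, with overlap between groups. With IFNγ its levels were 77.5, 58 and 90.2 CPM with IFNγ alone, 141, 87.9 and 95.1 CPM with A-241 and IFNγ and 120.3, 130.1 and 109 CPM with A-485 and IFNγ, and the averaged value was 0.40 (SE 0.22, adjusted p = 0.201), or 0.15 (adjusted p = 0.511) without the 2 libraries that stood apart. The other 4 genes of this role, Ddx21, Polr1e, Mybbp1a and Taf1d, had averaged values between -0.54 and 0.10, and the median of the 9 was -0.25 with 1 called. Without those 2 libraries Ddx21 was at -0.33 and Taf1d at -0.26.

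Of the 3 nucleolar phosphoproteins, Nolc1, which links snoRNPs to the nucleolus (chr19:46075863-46085530, plus strand), was lowered by A-241. Nolc1 stood at 233, 225 and 302 CPM with DMSO, 129.9, 144 and 141 CPM with A-241 and 235, 267 and 227 CPM with A-485. Nolc1 levels with IFNγ were 216, 307 and 215 CPM with IFNγ alone, 161, 151 and 161 CPM with A-241 and IFNγ and 217, 207 and 219 CPM with A-485 and IFNγ. Each library with A-241, at 129.9 to 161 CPM, lay below each of the 12 without it. The log2 fold change was -0.87 (SE 0.16, adjusted p = 0.00252) without IFNγ, -0.64 (SE 0.16, adjusted p = 0.0204) with it and -0.76 (SE 0.11, adjusted p = 0.000192) averaged, by edgeR with Benjamini-Hochberg adjustment. With IFNγ it was -0.46 (adjusted p = 0.00668), and so called, without the 2 libraries that stood apart. Its call without IFNγ was lost when DMSO replicate 3 or A-241 replicate 1, 2 or 3 was left out (adjusted p = 0.0113, 0.0179, 0.012 and 0.0133) or when the 6 libraries compared were fitted alone, and the averaged call was kept in each of 12 such fits (0.000142 to 0.000921). With no filter on low counts the call without IFNγ was lost too.

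Ncl and Npm1 encode nucleolin and nucleophosmin, abundant nucleolar RNA-binding proteins and chaperones. Ncl stood at 2210.1, 2593 and 4078 CPM with DMSO, 1719, 1963 and 2102 CPM with A-241 and 2833, 3225 and 2305 CPM with A-485. Ncl levels with IFNγ were 2347, 4448 and 2284 CPM with IFNγ alone, 1904, 2069 and 1976 CPM with A-241 and IFNγ and 1978, 2249.7 and 2104 CPM with A-485 and IFNγ. The A-241 libraries lay below the matched controls, and both of the libraries that stood apart were the highest of their condition. The averaged log2 fold change was -0.61 (SE 0.18, adjusted p = 0.0252) by edgeR, and -0.29 (adjusted p = 0.0314) without those 2 libraries. Npm1 stood at 3976, 3834 and 4216 CPM with DMSO, 3103, 3370.4 and 3170.2 CPM with A-241 and 3801, 4014 and 3512 CPM with A-485. Npm1 levels with IFNγ were 3435, 4367 and 3187 CPM with IFNγ alone, 3113, 3010.3 and 3063 CPM with A-241 and IFNγ and 3609, 3456 and 3610.4 CPM with A-485 and IFNγ. Its A-241 libraries also lay below the matched controls, with a smaller averaged difference of -0.29 (SE 0.10, adjusted p = 0.0538), and neither gene was called.

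All 4 box C/D snoRNP genes had negative averaged values with A-241, and 0 of the 4 were called. Fbl, the methyltransferase fibrillarin, stood at 491, 417 and 633 CPM with DMSO, 355, 353 and 341 CPM with A-241 and 449, 460.3 and 462 CPM with A-485. Fbl levels with IFNγ were 401, 635 and 419.6 CPM with IFNγ alone, 415, 347 and 414 CPM with A-241 and IFNγ and 366, 461 and 395 CPM with A-485 and IFNγ. The A-241 libraries lay below those with DMSO but overlapped with those of IFNγ alone, and the averaged log2 fold change was -0.43 (SE 0.13, adjusted p = 0.032), or -0.24 (adjusted p = 0.0426) without the 2 libraries that stood apart. Nop56 and Nop58 are the paired scaffold proteins of the particle. Nop56 stood at 276, 290.2 and 313 CPM with DMSO, 212, 245 and 234 CPM with A-241 and 372, 359 and 289 CPM with A-485. Nop56 levels with IFNγ were 310.1, 346 and 271 CPM with IFNγ alone, 262, 254 and 284 CPM with A-241 and IFNγ and 309, 306 and 323 CPM with A-485 and IFNγ. The highest values without IFNγ were those of A-485 replicates 1 and 2. Nop58 stood at 277, 343 and 269 CPM with DMSO, 236, 257 and 252 CPM with A-241 and 393, 388 and 336 CPM with A-485. Nop58 levels with IFNγ were 397, 309 and 341 CPM with IFNγ alone, 239.7, 295 and 261 CPM with A-241 and IFNγ and 355, 343 and 340.2 CPM with A-485 and IFNγ. For both scaffold genes every A-241 library lay below every A-485 library, and the averaged differences from the controls were -0.28 (SE 0.10, adjusted p = 0.059) and -0.33 (SE 0.10, adjusted p = 0.0346) by edgeR with Benjamini-Hochberg adjustment. Nop58 was called without the 2 libraries that stood apart, at -0.42 (adjusted p = 0.00181). Rrp9, a protein of the U3 particle, had an averaged value of -0.45. It shares exon bases with Parp3, which had a higher mean count, so its values are uncertain. At an unadjusted p under 0.05 the averaged comparison had all 4 lower, and their median was -0.38.

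Of the 4 box H/ACA snoRNP genes 0 were called, and all 4 averaged values moved by more than 1.5 times without the 2 libraries that stood apart. Dkc1, the pseudouridine synthase dyskerin, stood at 817, 689.7 and 3050.1 CPM with DMSO, 470.2, 653 and 563 CPM with A-241 and 985, 998 and 721 CPM with A-485. Dkc1 levels with IFNγ were 686, 3011 and 698 CPM with IFNγ alone, 572, 506 and 622 CPM with A-241 and IFNγ and 798, 772 and 1002 CPM with A-485 and IFNγ. DMSO replicate 3 and IFNγ replicate 2 lay above every other library, and the 6 A-241 libraries were still the 6 lowest. The averaged log2 fold change was -1.40 (SE 0.39, adjusted p = 0.0176), the largest of the 50 in size, and without those 2 libraries it was -0.38 (adjusted p = 0.0218). Gar1, a small core protein of the particle, stood at 18.1, 46.2 and 4.14 CPM with DMSO, 21, 23.2 and 25.9 CPM with A-241 and 37.3, 39.2 and 22 CPM with A-485. Gar1 levels with IFNγ were 68.9, 6.84 and 44.8 CPM with IFNγ alone, 16.7, 43 and 27.8 CPM with A-241 and IFNγ and 22.7, 27 and 16.3 CPM with A-485 and IFNγ. Here the same 2 libraries were the lowest of all, the groups overlapped throughout, and the averaged value moved from -0.25 (SE 0.46, adjusted p = 0.742) to -0.74 (adjusted p = 0.0357) without them. Nhp2 and Nop10, the other core proteins, had averaged values of -0.55 and 0.14, against -0.25 and -0.009 without those 2. Nop10 was the 1 member whose libraries with A-241 all lay above those with DMSO, at 235, 243 and 221 CPM against 217, 219 and 177 CPM, a difference of 0.19 (SE 0.18, adjusted p = 0.562) that did not pass the threshold and was 0.06 (adjusted p = 0.825) without DMSO replicate 3 and IFNγ replicate 2. Of all genes, 13.3% lay wholly above in that comparison.

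Tsr1, a factor of late small subunit maturation (chr11:74898071-74909342, plus strand on GRCm38), was called lower in all 6 comparisons of A-241 with its controls or with A-485, averages included. Tsr1 stood at 158, 127 and 129 CPM with DMSO, 59.4, 55.8 and 57.4 CPM with A-241 and 121, 144 and 144 CPM with A-485. Tsr1 levels with IFNγ were 113, 138 and 131 CPM with IFNγ alone, 80.8, 61.2 and 58.9 CPM with A-241 and IFNγ and 143, 127 and 129.6 CPM with A-485 and IFNγ. The libraries with A-241 reached at most 80.8 CPM and the 12 others were at 113 CPM or more, so the groups did not overlap. The log2 fold change with A-241 was -1.26 (SE 0.16, adjusted p = 7.37e-05) without IFNγ, -0.93 (SE 0.16, adjusted p = 0.0011) with it and -1.09 (SE 0.11, adjusted p = 3.1e-06) averaged, by edgeR with Benjamini-Hochberg adjustment. No single library left out ended the call without IFNγ (adjusted p 9.47e-05 to 0.00115) or the averaged call (3.2e-06 to 2.91e-05), and the call with IFNγ was lost without A-241 with IFNγ replicate 2 (adjusted p = 0.01 as rounded). Fitted on the 6 libraries compared alone, Tsr1 was not called without IFNγ (adjusted p = 0.0126) or with it (adjusted p = 0.0768), and the averaged call was kept. Srr, on the opposite strand, shares 1240 exon bases with Tsr1, and counting did not use strand. It had 2 to 39 counts in a library, against a mean of 559 for Tsr1.

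Wdr43 and Utp20 belong to the small subunit processome, the large particle that forms on the nascent precursor, and both were called lower in the averaged comparison. Wdr43 stood at 494, 396 and 802 CPM with DMSO, 257, 267 and 259 CPM with A-241 and 474, 471 and 458 CPM with A-485. Wdr43 levels with IFNγ were 413, 932 and 459 CPM with IFNγ alone, 317, 267 and 299.8 CPM with A-241 and IFNγ and 517, 468 and 546 CPM with A-485 and IFNγ. The 6 A-241 libraries, at 257 to 317 CPM, lay below all others, and the 2 libraries that stood apart were the highest. The averaged log2 fold change was -1.07 (SE 0.19, adjusted p = 0.000944) by edgeR, and -0.69 (adjusted p = 6.01e-06) without those 2. Utp20 stood at 46.9, 56.9 and 81 CPM with DMSO, 34, 36.4 and 43.9 CPM with A-241 and 43.5, 54.5 and 46.6 CPM with A-485. Utp20 levels with IFNγ were 59, 75.5 and 50.1 CPM with IFNγ alone, 30.6, 42 and 35.8 CPM with A-241 and IFNγ and 44.1, 42.3 and 37.3 CPM with A-485 and IFNγ. The A-241 libraries lay below the matched controls in both settings and overlapped with A-485, and the averaged value was -0.72 (SE 0.15, adjusted p = 0.00233). That call was lost when the libraries compared were fitted alone. Rrp12, which acts in the export of the subunits, stood at 63.9, 56.1 and 116 CPM with DMSO, 38.4, 35.8 and 39.9 CPM with A-241 and 55.3, 57.1 and 52.6 CPM with A-485. Rrp12 levels with IFNγ were 48.4, 139 and 53.4 CPM with IFNγ alone, 47.1, 41 and 42 CPM with A-241 and IFNγ and 61.1, 52.6 and 68.8 CPM with A-485 and IFNγ. The groups were separate, but the averaged value of -0.96 (SE 0.23, adjusted p = 0.00847) shrank to -0.47 (adjusted p = 0.00108) without the libraries that stood apart. The call was lost when DMSO replicate 3 or any of the 6 A-241 libraries was left out (adjusted p 0.0167 to 0.023). It was also lost by limma-voom, with upper-quartile scaling, with the replicate number as a block, and when the libraries compared were fitted alone.

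Other small subunit factors gave smaller differences. Heatr1, the large scaffold protein of the early processome, stood at 13.7, 9.45 and 14.8 CPM with DMSO, 12.6, 13.4 and 11.8 CPM with A-241 and 14.8, 13.7 and 16.5 CPM with A-485. Heatr1 levels with IFNγ were 8.34, 22.6 and 9.94 CPM with IFNγ alone, 9.34, 10.4 and 9.88 CPM with A-241 and IFNγ and 9.93, 12.4 and 11 CPM with A-485 and IFNγ. The groups overlapped, at an averaged log2 fold change of -0.20 (SE 0.21, adjusted p = 0.521) with a 95% interval of -0.61 to 0.20. Without the 2 libraries that stood apart the sign turned, at 0.11 (adjusted p = 0.598). Ddx10, an RNA helicase, was the small subunit gene with the highest averaged value, 0.14 (SE 0.09, adjusted p = 0.304) by edgeR, and 0.07 without those 2. With IFNγ alone it stood at 112, 100.2 and 91.6 CPM and with A-241 and IFNγ at 114, 128 and 124 CPM, without overlap. Over the 15 small subunit genes the median of the averaged effect of A-241 was -0.20, with 12 negative values, and 4 were lower and 0 higher at an unadjusted p under 0.05. The 4 are the 4 that were called, Tsr1, Wdr43, Rrp12 and Utp20, and the other 11 lay between -0.40 (Ltv1) and 0.14 (Ddx10). Ltv1 was at 0.11 without those 2 libraries.

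Of the 3 roles with more than 4 members, large subunit assembly had the lowest median, at -0.53 for the averaged effect of A-241, with 14 of 15 values negative, 11 lower at an unadjusted p under 0.05 and 4 called. Without the 2 libraries that stood apart its median was -0.34, with 8 called. Rrp1b, a nucleolar protein of ribosomal RNA processing (chr17:32036100-32062865, plus strand), stood at 113, 87.9 and 65.2 CPM with DMSO, 55, 44.6 and 36.6 CPM with A-241 and 76.6, 69.5 and 87.2 CPM with A-485. Rrp1b levels with IFNγ were 123, 83.8 and 115 CPM with IFNγ alone, 58, 49 and 42 CPM with A-241 and IFNγ and 89.9, 94.3 and 103 CPM with A-485 and IFNγ. The 6 A-241 libraries, at 36.6 to 58.0 CPM, lay below all others. The log2 fold change was -0.97 (SE 0.22, adjusted p = 0.00895) without IFNγ, -1.11 (SE 0.22, adjusted p = 0.00346) with it and -1.04 (SE 0.15, adjusted p = 0.00014) averaged, by edgeR with Benjamini-Hochberg adjustment. Without IFNγ the Rrp1b call was lost when DMSO replicate 1 or 2 or A-241 replicate 1, 2 or 3 was left out (adjusted p 0.0138 to 0.0606), and with IFNγ when IFNγ replicate 1 or 3 or A-241 with IFNγ replicate 2 or 3 was left out (0.0155 to 0.0218). Both calls were also lost when the 6 libraries compared were fitted alone or when scaling was to total counts. The call without IFNγ was lost, too, by limma-voom, with no filter on low counts and with at least 10 counts in every library. The averaged call was kept in all these settings. With each of its 12 libraries left out in turn it was kept too (adjusted p 2.48e-05 to 0.00078).

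Gnl3 (chr14:31012433-31019152, minus strand) encodes nucleostemin, a nucleolar GTPase of large subunit assembly. Gnl3 stood at 49.4, 65.9 and 39.3 CPM with DMSO, 26, 27.4 and 30.3 CPM with A-241 and 64.3, 56.8 and 54.9 CPM with A-485. Gnl3 levels with IFNγ were 71, 46.4 and 63.9 CPM with IFNγ alone, 28, 37.1 and 30.5 CPM with A-241 and IFNγ and 63.4, 56.3 and 53.3 CPM with A-485 and IFNγ. The 6 A-241 libraries, at 26.0 to 37.1 CPM, lay below all others, and the libraries that stood apart were here the lowest of their condition. The log2 fold change was -0.89 (SE 0.20, adjusted p = 0.00877) without IFNγ, -0.93 (SE 0.20, adjusted p = 0.00679) with it and -0.91 (SE 0.14, adjusted p = 0.000219) averaged, by edgeR with Benjamini-Hochberg adjustment. Without IFNγ the Gnl3 call was lost when DMSO replicate 1 or 2 or A-241 replicate 1, 2 or 3 was left out (adjusted p 0.0214 to 0.049), and with IFNγ when IFNγ replicate 1 or 3 or A-241 with IFNγ replicate 1, 2 or 3 was left out (0.0123 to 0.0486). Both were lost, too, in fits of the 6 libraries compared alone, scaled to total counts, or with the replicate number as a block. The same held with no filter on low counts and with at least 10 counts in every library. By limma-voom the call without IFNγ was lost and that with IFNγ kept. The averaged Gnl3 call was kept in all these settings. With each of its 12 libraries left out in turn it was kept too (adjusted p 4.61e-05 to 0.00126). Gnl3 shares 15 exon bases with Pbrm1, which had a higher mean count, so its values are uncertain. Ppan, a factor of large subunit precursor processing, stood at 74.9, 47.9 and 28.3 CPM with DMSO, 33.4, 23.2 and 22.9 CPM with A-241 and 60.1, 60.6 and 82.3 CPM with A-485. Ppan levels with IFNγ were 59.5, 32.1 and 70.1 CPM with IFNγ alone, 36.3, 31.9 and 26.3 CPM with A-241 and IFNγ and 54.8, 65.4 and 65.6 CPM with A-485 and IFNγ. Its A-241 libraries lay below all of A-485 but overlapped with the controls, at an averaged -0.86 (SE 0.22, adjusted p = 0.0122), and it was called without the 2 libraries that stood apart, at -1.14 (adjusted p = 9.72e-06).

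Pes1, Bop1 and Wdr12 form the PeBoW complex, needed for processing of the large subunit RNAs. Pes1 stood at 126, 118 and 389 CPM with DMSO, 98.6, 119 and 117 CPM with A-241 and 152, 167 and 119.6 CPM with A-485. Pes1 levels with IFNγ were 115, 369 and 122 CPM with IFNγ alone, 105, 101 and 125 CPM with A-241 and IFNγ and 102, 110.1 and 108 CPM with A-485 and IFNγ. DMSO replicate 3 and IFNγ replicate 2 lay above every other library, and the averaged log2 fold change of -0.89 (SE 0.31, adjusted p = 0.0503) by edgeR moved to -0.14 (adjusted p = 0.318) without them. Bop1 stood at 16.6, 18 and 37.9 CPM with DMSO, 16.8, 18.6 and 13 CPM with A-241 and 21.1, 22.7 and 19 CPM with A-485. Bop1 levels with IFNγ were 18.4, 44 and 21.1 CPM with IFNγ alone, 17.4, 16.3 and 22.2 CPM with A-241 and IFNγ and 23.1, 17.9 and 23.7 CPM with A-485 and IFNγ. The same 2 libraries were the highest for Bop1, and the value moved from -0.56 (SE 0.23, adjusted p = 0.105) to -0.11 (adjusted p = 0.564). Wdr12 stood at 182, 169 and 133 CPM with DMSO, 131, 107 and 98.4 CPM with A-241 and 156, 147 and 167 CPM with A-485. Wdr12 levels with IFNγ were 138, 138 and 137 CPM with IFNγ alone, 122, 102 and 130.3 CPM with A-241 and IFNγ and 169, 168 and 168 CPM with A-485 and IFNγ. DMSO replicate 3 was its lowest DMSO library, its 6 A-241 libraries lay below all others, and its averaged value was -0.37 (SE 0.11, adjusted p = 0.0222), short of the threshold. Without the same 2 libraries Wdr12 was called, at -0.46 (adjusted p = 0.00116). Rrs1 and Gtpbp4, both of large subunit assembly, were called in the averaged comparison at -0.66 (SE 0.16, adjusted p = 0.00804) and -0.53 (SE 0.13, adjusted p = 0.00698). The Rrs1 call was lost when DMSO replicate 2, IFNγ replicate 1 or 3, any A-241 library without IFNγ, or A-241 with IFNγ replicate 1 or 3 was left out (adjusted p 0.0183 to 0.0261). The Gtpbp4 call was lost without DMSO replicate 3, IFNγ replicate 2, any A-241 library without IFNγ, or A-241 with IFNγ replicate 1 or 2 (0.0104 to 0.0213). Both calls were lost with no filter on low counts, scaled to total counts, or with the replicate number as a block. They were lost, too, when the libraries compared were fitted alone. The Rrs1 call was also lost by limma-voom and with at least 10 counts in every library, and the Gtpbp4 call with upper-quartile scaling. Rrs1 and Gtpbp4 lie outside the rule for named genes in this comparison and were named after their values were seen.

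**Figure D3:**
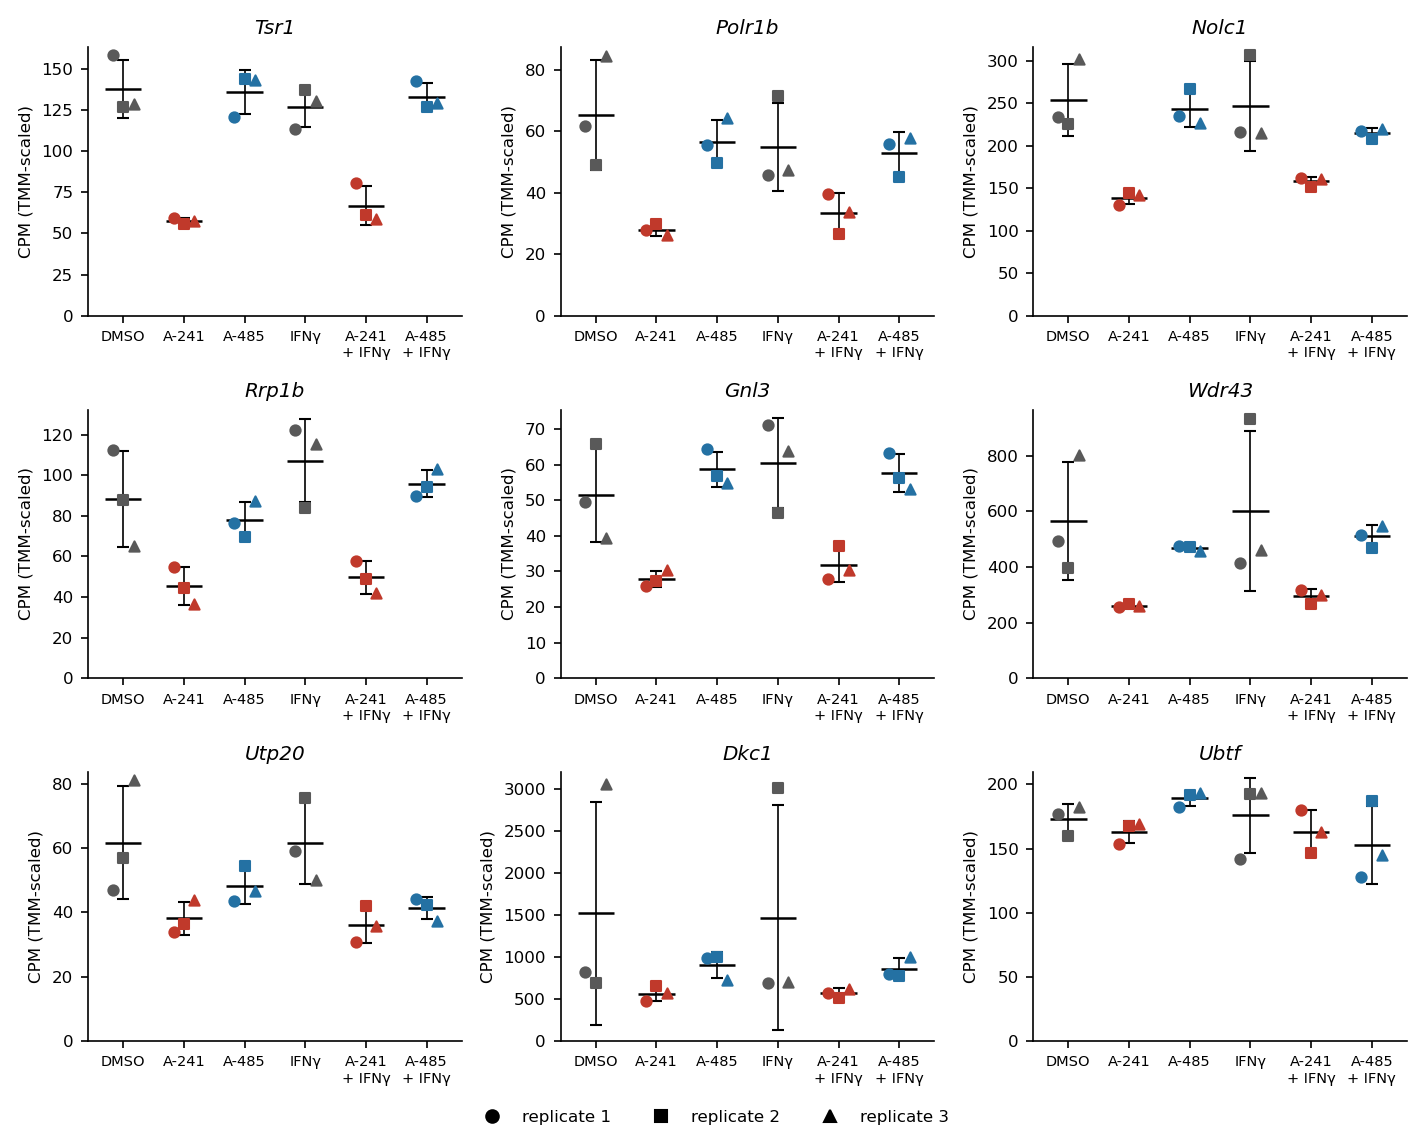
Level (CPM, TMM-scaled) of 9 of the 50 genes in every library, with the mean (horizontal line) and SD (bars) of the 3 libraries of each condition. The 6 A-241 libraries (red) lie below all others for Tsr1, Polr1b, Nolc1, Rrp1b, Gnl3, Wdr43 and Dkc1, they overlap with A-485 for Utp20, and Ubtf shows no separation. For Dkc1, DMSO replicate 3 and IFNγ replicate 2 lie at 3050.1 and 3011 CPM.

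A-485 did not lower these genes detectably. Its controls are the same DMSO and IFNγ libraries as those of A-241. Without IFNγ, edgeR called 0 of the 50 lower and 0 higher, where 0.619% of all genes tested were called lower and 0.0418% higher, and DESeq2 and limma-voom also called 0. At an unadjusted p under 0.05, 0 were lower and 4 higher, against 8.2% and 4.1% of all genes, and the median log2 fold change was 0.05. The A-485 libraries lay wholly below those with DMSO in 0 of the 50 and wholly above in 6, against 8.84% and 7.07% of all genes, and 23 values were negative, as were 50.3% over all genes. With IFNγ 0 were called in either direction by the 3 tools, where 0.535% of all genes were called lower, 2 were lower and 2 higher at an unadjusted p under 0.05 (9.33% and 5.38% of all genes), and the median was -0.04 against -0.03 for all genes. Of the 50 values with IFNγ, 30 were negative, against 53.1% over all genes. The averaged comparison also called 0 lower and 0 higher, where 2.39% of all genes were called lower, with 3 lower and 4 higher at an unadjusted p under 0.05 (12.9% and 8.11% of all genes) and a lowest adjusted p of 0.0594. Without DMSO replicate 3 and IFNγ replicate 2 the 3 comparisons still called 0 in either direction, where 2.28%, 2.37% and 4.56% of all genes were called lower, and 13, 21 and 13 of the 50 values were negative, at medians of 0.13, 0.09 and 0.08. For 38 of the 50 the lower bound of the approximate 95% interval of the averaged effect lay above -0.5 on the log2 scale, and for 47 above -1.

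Members near a call with A-485 without or with IFNγ were as follows, with averaged values for some. The lowest adjusted p of the averaged comparison by edgeR, 0.0594, was that of neither Utp20 nor Pes1. Utp20 had the lowest unadjusted p among negative values, at -0.35 (SE 0.21, adjusted p = 0.533) without IFNγ, -0.57 (SE 0.21, adjusted p = 0.204) with it and -0.46 (SE 0.15, adjusted p = 0.0791) averaged by edgeR. Without the 2 libraries that stood apart, the first was -0.14 and the last -0.28. Its levels were 43.5, 54.5 and 46.6 CPM with A-485 against 46.9, 56.9 and 81 CPM with DMSO, which overlapped, and 44.1, 42.3 and 37.3 CPM against 59, 75.5 and 50.1 CPM with IFNγ, which did not. Nhp2 without IFNγ (-0.41, SE 0.24, adjusted p = 0.534) and Rrp9 with IFNγ (-0.46, SE 0.20, adjusted p = 0.292) came next, Nhp2 at -0.19 without those 2 libraries. Rrp9 stood at 12, 14.4 and 13.6 CPM with A-485 and IFNγ and at 17.5, 21.7 and 16.2 CPM with IFNγ alone, without overlap. Among positive values, Nop2, a methyltransferase of the large subunit RNA, stood at 54.2, 70.3 and 67 CPM with A-485 and 46.9, 45.2 and 41.7 CPM with DMSO. The groups did not overlap, and the difference was 0.51 (SE 0.17, adjusted p = 0.156). Utp4, of the processome, stood at 59.2, 60.4 and 58.7 CPM with A-485 and 46.3, 41.4 and 33.1 CPM with DMSO, likewise without overlap (0.56, SE 0.20, adjusted p = 0.208). With IFNγ the lowest p among positive values were those of Ddx10 (0.31, SE 0.13, adjusted p = 0.294) and Polr1c (0.67, SE 0.31, adjusted p = 0.321). Averaged and without the 2 libraries that stood apart, Nop2 was at 0.34 (adjusted p = 0.0703) and Ddx10 at 0.21 (adjusted p = 0.121) by edgeR. Pes1 averaged -0.72 (SE 0.31, adjusted p = 0.189) with A-485, and 0.03 (adjusted p = 0.879) without the 2 libraries that stood apart.

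A direct comparison of the inhibitors sets levels in A-241 libraries against those in A-485 libraries, while the spread is still estimated from all 18 libraries. Without DMSO replicate 3 and IFNγ replicate 2 in that estimate, 14 of the 50 genes were called lower without IFNγ, 5 with IFNγ and 21 for the averaged difference, against 1, 1 and 7 with them. Of all genes, 1.48%, 1.24% and 3.03% were called lower in those fits, against 0.351%, 0.51% and 1.15% with them. The doses differ, at 250 nM for A-241 and 1000 nM for A-485, so the comparison is of these treatments as given. Without IFNγ, 49 of the 50 genes had a negative log2 fold change of A-241 over A-485, with Nop10 (0.01) as the exception, while 50.8% of all genes had a positive value. The median was -0.41, against 0.01 for all genes tested. In 41 of the 50 every A-241 library lay below every A-485 library, against 11.3% of all genes. By edgeR 1 gene, Tsr1 (-1.24, SE 0.16, adjusted p = 0.000454), was called, where 0.351% of all genes were called lower, and 19 were lower and 0 higher at an unadjusted p under 0.05, against 4.64% and 3.52% of all genes. DESeq2 and limma-voom called 8 and 1 lower and 0 higher. The Tsr1 call was kept when any of the 6 libraries was left out.

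With IFNγ, from a separate set of 6 libraries, the median lay closer to 0. Of the 50 values 46 were negative, against 49.6% over all genes, and the median was -0.22 against 0.00. The libraries were separate for 26, all of them with A-241 below, against 11.8% of all genes with A-241 below and 7.96% with it above. Tsr1 was again the gene called (-0.99, SE 0.16, adjusted p = 0.00251), where 0.51% of all genes were called lower and 0.00836% higher, and 13 were lower and 0 higher at an unadjusted p under 0.05, against 4.48% and 2.02% of all genes. DESeq2 and limma-voom called 3 and 1 lower and 0 higher. That Tsr1 call was lost when A-241 with IFNγ replicate 2 or 3 or A-485 with IFNγ replicate 1 was left out (adjusted p = 0.0287, 0.0225 and 0.0185). The highest values were those of Gar1 (0.41, SE 0.66, adjusted p = 1) and Ubtf (0.09, SE 0.16, adjusted p = 1), both of which had overlapping libraries. Side by side, 45 of the 50 were negative in both comparisons and 23 had A-241 wholly below in both, against 30.3% and 4.39% of all genes.

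The difference between the inhibitors averaged over cells without and with IFNγ was negative for each of the 50 genes, with a median of -0.32 against 0.01 for all genes, of which 48.2% were negative. By edgeR 7 were called lower and 0 higher, where 1.15% of all genes were called lower and 0.1% higher, and 25 were lower and 0 higher at an unadjusted p under 0.05, against 6.79% and 4.48% of all genes. DESeq2 and limma-voom called 13 and 7 lower and 0 higher. The 7 were Ppan, Tsr1, Gnl3, Rrp1b, Polr1b, Nop2 and Nolc1. Ppan was -1.16 (SE 0.22, adjusted p = 0.00727), Tsr1 -1.12 (SE 0.11, adjusted p = 1.78e-05), Gnl3 -0.96 (SE 0.14, adjusted p = 0.000729), Rrp1b -0.86 (SE 0.15, adjusted p = 0.00386) and Polr1b -0.84 (SE 0.16, adjusted p = 0.00613). Tsr1 and Gnl3 kept the call when any of the 12 libraries was left out. Ppan lost it with any of the 12 (adjusted p 0.0112 to 0.0328), Polr1b with 9 (all but A-485 replicate 2, A-241 with IFNγ replicate 1 and A-485 with IFNγ replicate 2), Rrp1b with 7 (A-241 replicates 2 and 3, A-485 replicates 1 and 3, A-241 with IFNγ replicates 2 and 3 and A-485 with IFNγ replicate 3) and Nolc1 with 10 (all but A-485 replicate 3 and A-485 with IFNγ replicate 2). Nop2 (-0.68, SE 0.12, adjusted p = 0.00344) lost it without A-241 replicate 1 or 3, A-485 replicate 2, A-241 with IFNγ replicate 1 or 2 or A-485 with IFNγ replicate 3 (0.0103 to 0.0156). Nop2 and Nolc1 were named here after their values were seen. Scaled to total counts, Gnl3, Rrp1b, Ppan and Nop2 were not called. With no filter on low counts Nop2 and Nolc1 were not called. With the replicate number as a block, Polr1b, Nolc1 and Ppan were not. The count of 7 fell to between 2 and 4 without any single library other than A-485 with IFNγ replicate 2, without which it was 6. In 22 of the 50 all 6 A-241 libraries lay below all 6 A-485 libraries, against 2.59% of all genes. The approximate 95% interval of the difference lay wholly below 0 for 25 of the 50 genes and wholly above 0 for 0, and for the others it spanned 0. Examples of these others are Ubtf (-0.29 to 0.16), Rrn3 (-0.42 to 0.09) and Nop10 (-0.25 to 0.24). Where the interval spanned 0, neither a difference nor its absence is shown.

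**Figure D4:**
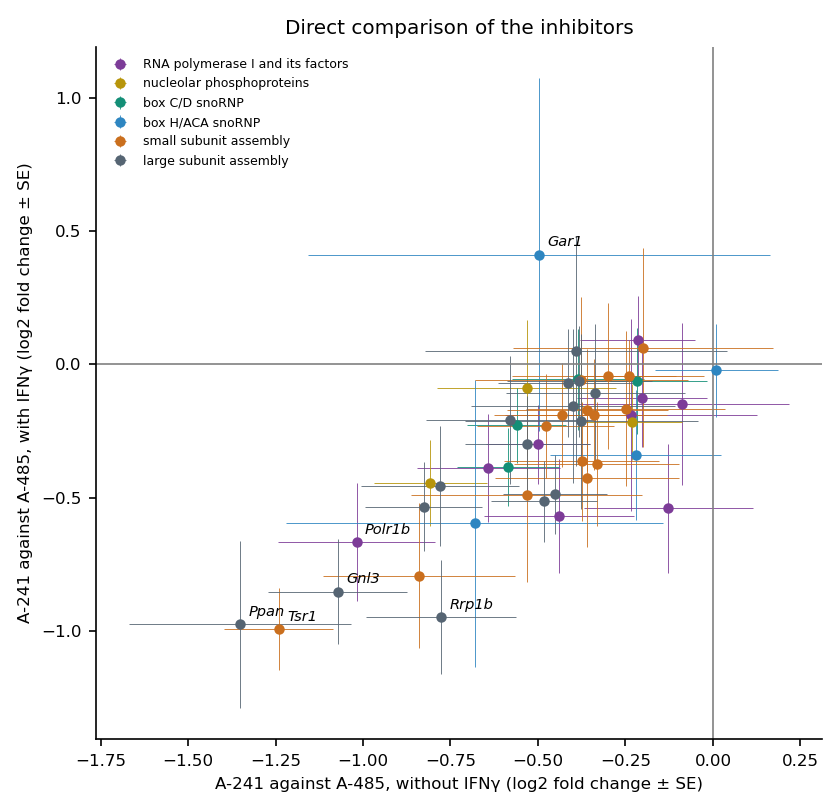
Log2 fold change ± SE between A-241 (250 nM) and A-485 (1000 nM) for each of the 50 genes, without IFNγ (horizontal axis) and with IFNγ (vertical axis), which use different libraries, with points colored by role. Of the 50 points, 45 lie in the lower left field, with Ppan, Tsr1, Gnl3, Polr1b and Rrp1b farthest out and Gar1 highest.

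IFNγ alone did not change the 50 genes detectably. Against DMSO, edgeR, DESeq2 and limma-voom called 0 lower and 0 higher, where 0.1% of all genes were called lower and 1.2% higher, and 0 were lower and 1 higher at an unadjusted p under 0.05, against 3.74% and 4.76% of all genes. The median log2 fold change was 0.03. Noc4l, a small subunit factor, had the lowest p, at 78.1, 53.8 and 70.8 CPM with IFNγ and 65.8, 40.5 and 25.2 CPM with DMSO (0.62, SE 0.26, adjusted p = 0.485), with overlapping libraries. Rrs1 (0.45, SE 0.22, adjusted p = 0.624), Wdr12 (-0.23, SE 0.15, adjusted p = 0.794) and Ddx10 (-0.17, SE 0.13, adjusted p = 0.858) followed, and without the 2 libraries that stood apart Wdr12 was at -0.36 and Ddx10 at -0.28. In cells with A-241, IFNγ gave 0 calls and 0 at an unadjusted p under 0.05 in either direction, with a median of 0.12, where 0.0% of all genes were called lower and 0.192% higher. In cells with A-485 the counts were the same and the median was -0.09, where 0.0585% of all genes were called lower and 0.744% higher. DESeq2 and limma-voom called 0 of the 50 in both. Over all genes, 1.51% were lower and 2.21% higher at the unadjusted p in cells with A-241, and 2.11% and 3.73% in cells with A-485.

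Whether an inhibitor acted differently with IFNγ was tested as an interaction. For A-241, edgeR, DESeq2 and limma-voom called 0 of the 50, where edgeR called 0.0334% of all genes lower and 0.0% higher. At an unadjusted p under 0.05, 0 of the 50 were lower or higher, against 1.93% and 1.43% of all genes. The values with the lowest p were those of Nob1 (-0.64, SE 0.44, adjusted p = 1) and Nat10 (-0.37, SE 0.32, adjusted p = 1) among negative ones and Polr1b (0.51, SE 0.31, adjusted p = 1) and Tsr1 (0.34, SE 0.22, adjusted p = 1) among positive ones. The Polr1b call without IFNγ and the absence of a call with it therefore do not show that the effect differed. For A-485, the 3 tools called 0, where edgeR called 0.0% of all genes in either direction. At an unadjusted p under 0.05, against 2.01% lower and 2.16% higher of all genes, 0 members were higher and 1 gene was lower. That gene was Nob1 (-0.96, SE 0.43, adjusted p = 1), an endonuclease of small subunit maturation. Rrs1 (-0.66, SE 0.32, adjusted p = 1), Wdr12 (0.34, SE 0.21, adjusted p = 1) and Utp15 (0.28, SE 0.33, adjusted p = 1) followed, Utp15 at 0.17 without the 2 libraries that stood apart.

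The rest of the pathway was examined in 112 other ribosome biogenesis genes, of 113 listed, all 112 of which were tested. A-241 lowered 2 and raised 0 without IFNγ and lowered 2 and raised 0 with it, at medians of -0.11 and -0.16. Of all genes, 3.53% and 3.54% were called lower in these comparisons and 0.827% and 0.543% higher. In the averaged comparison 7 were called lower and 0 higher, at a median of -0.14. At an unadjusted p under 0.05, 31 were lower and 7 higher there, against 18.8% and 14.9% of all genes. By the averaged calls 6.25% of the 112 genes were lower, against 7.05% of all genes. The 2 called without IFNγ were Cd3eap, a subunit of RNA polymerase I (-1.04, SE 0.22, adjusted p = 0.00607), and Rcl1, of small subunit RNA processing (-0.80, SE 0.15, adjusted p = 0.00324). With IFNγ they were Cd3eap (-1.07, SE 0.22, adjusted p = 0.00521) and Nol8 (-0.94, SE 0.20, adjusted p = 0.00686), of large subunit assembly. Each of these 4 calls was lost when any 1 of 5 libraries was left out (adjusted p 0.0108 to 0.0383). The library whose omission kept the call was DMSO replicate 2 for Cd3eap and Rcl1 without IFNγ, IFNγ replicate 1 for Cd3eap with IFNγ and IFNγ replicate 3 for Nol8. A-485 gave 0 calls in this list without IFNγ, with IFNγ and averaged, at medians of 0.18, 0.02 and 0.06. Of all genes, 0.619%, 0.535% and 2.39% were called lower with A-485 and 0.0418%, 0.0167% and 0.201% higher. The averaged difference between the inhibitors had 5 called lower and 0 higher, where 1.15% of all genes were called lower and 0.1% higher, and 85 of 112 values were negative, as were 48.2% over all genes.

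**Figure D5:**
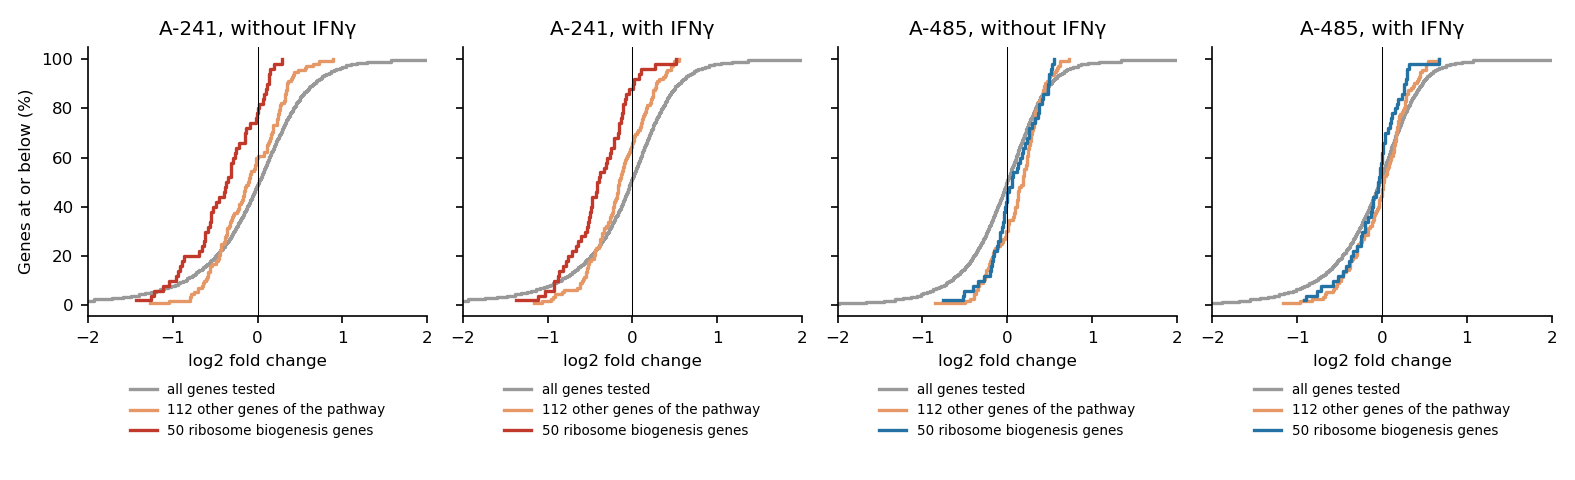
Cumulative share of genes (vertical axis, %) at or below each log2 fold change against the matched control, for all genes tested (gray), 112 other ribosome biogenesis genes (orange) and the 50 genes (red for A-241, blue for A-485). The curve of the 50 genes lies to the left of that of all genes with A-241, at medians of -0.36 and -0.40, and around it with A-485, at 0.05 and -0.04.

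Myc, known as an activator of this pathway, was called lower with A-241 in both settings, and with A-485 in the averaged comparison alone. It had 42, 66 and 63 counts with DMSO, 2, 4 and 0 with A-241, while the A-485 libraries had 46, 35 and 25. With IFNγ it had 93, 88 and 57 counts alone, 6, 7 and 6 with A-241, while those with A-485 had 19, 8 and 22. Averaged, Myc was called lower for A-241 (adjusted p = 2.09e-06) and also for A-485 (log2 fold change -1.62, SE 0.32, adjusted p = 0.00582) by edgeR. The single A-485 comparisons did not pass the threshold, at -0.95 (SE 0.44, adjusted p = 0.396) without IFNγ and -2.28 (SE 0.47, adjusted p = 0.0195) with it. Without the 2 libraries that stood apart these were -0.52 (adjusted p = 0.425) and -1.76 (adjusted p = 0.00231), the latter a call. The fitted fold change with A-241 rests on a handful of counts and is not given. Within the 50 genes, the 9 with CACGTG in the promoter had a median averaged effect of A-241 of -0.40 and the other 36 with a promoter of -0.28, and 3 of 9 and 5 of 36 were called. Without the 2 libraries that stood apart the medians were -0.25 and -0.26, and 3 and 10 were called, so no order between these sets is read from them. Their ranges overlapped, at -1.09 to 0.04 and -1.40 to 0.40, and whether Myc has a part in the level of any of these genes was not tested.

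Some counts could include reads of other genes, since a read on 2 genes was counted for both and strand was not used. Exon bases were shared with another annotated gene by 22 of the 50, and 9 contain a small nucleolar RNA gene. Of the genes called with A-241, Polr1b, Nolc1, Utp20, Rrp12 and Rrs1 shared none. Gnl3 shares 15 bases with Pbrm1, which had 163 to 824 counts in a library, and Rrp1b shares 54 with Hsf2bp, which had 0 to 4. Gnl3, Taf1d, Bop1, Rrp9, Bysl and Heatr1 each overlap a gene whose mean count was more than 40% of their own and are uncertain. With A-241, averaged log2 fold changes of the overlapping genes were -0.04 (Pbrm1, overlapping Gnl3), -1.27 (Parp3, overlapping Rrp9) and -0.54 (Mroh1, overlapping Bop1). Those of Cep295 (overlapping Taf1d), Lgals8 (Heatr1) and Ccnd3 (Bysl) were 0.09, 0.27 and 0.58. What part reads of the overlapping genes have in these values was not tested. Among the 28 genes without shared bases, 2 were called lower with A-241 without IFNγ, 0 with IFNγ and 5 averaged. Across the 50 genes, the averaged effect of A-241 and the mean level had a Spearman rho of -0.21, given as a description across genes that are not independent replicates.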

How the data were processed

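Cells were pretreated with DMSO, A-241 or A-485 and then given IFNγ or vehicle, and QuantSeq 3′ libraries were sequenced with 3 libraries in each of 6 conditions, taken from the labels. The authors demultiplexed with bcl2fastq 2.17.1.14, checked reads with FastQC 0.11.5, trimmed with cutadapt 1.7, aligned to GRCm38 with HISAT2 2.1.0 and deposited raw counts per gene from featureCounts, which counted a read on several genes for each of them and used no strand setting. The annotation release is not given in the sources used here. The deposited counts were used as they stood, 0 sample columns had to be set aside, and 42548 of 43629 identifiers were named through GENCODE vM21 (the others held 0.403% of counts).

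Genes were kept by filterByExpr (11964), libraries were scaled by TMM, and 14 comparisons were tested with edgeR 4.0.16 in R 4.3.3 (quasi-likelihood test, 1 mean per condition over all 18 libraries, Benjamini-Hochberg adjustment, calls at an adjusted p under 0.01). Standard errors were taken as the size of the log2 fold change over the root of F, and log2 CPM used a prior count of 2. The method was tested on simulated data whose spread between libraries was smaller than in these data and which held no libraries that stood apart. That test does not show how the method behaves with such libraries. Fits with limma-voom 3.58.1 (the study's workflow), DESeq2 1.42.0, surrogate variables (sva 3.50.0), other filters and other scalings were the alternatives, and limma-voom with quality weights was added after seeing the data. The members and the gene lists were chosen with earlier results of these data known. Named genes were 18 fixed representatives of the roles, the 5 largest calls in each direction of a comparison or, with none, the 2 smallest p, Myc, and up to 3 called genes of the wider list in each A-241 comparison. Library totals of 3417167 to 7856830 counts limit the precision of low genes. Reads carried no molecular identifiers that were used here, so counts are not independent molecules.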

Additional observations from a re-analysis of the deposited data

How the results depend on the processing

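The counts of members called lower rest on the setting, while 0 of the values reported changed direction past the threshold under any alternative run. Given in the order A-241 against DMSO (main value 5), A-241 against A-485 (1), A-241 with IFNγ against IFNγ (3), A-241 with IFNγ against A-485 with IFNγ (1), A-241 averaged (10) and A-241 minus A-485 averaged (7), the counts of members called lower were 8, 8, 7, 3, 22 and 13 by DESeq2. They were 21, 24, 15, 12, 24 and 26 with 2 surrogate variables, and 10, 14, 7, 5, 15 and 21 without DMSO replicate 3 and IFNγ replicate 2. With limma-voom and sample quality weights they were 9, 18, 8, 6, 14 and 21. Fitted on the libraries of the groups compared alone they were 0, 7, 0, 5, 6 and 20. At an adjusted p under 0.05 they were 8, 5, 7, 2, 22 and 12, and among members with no shared exon bases 2, 0, 0, 0, 5 and 3. By limma-voom the count for A-241 against DMSO was 3, with no filter on low counts 2, and with at least 10 counts in every library 3, and with no filter that for A-241 with IFNγ against A-485 with IFNγ was 0. Scaled to total counts, A-241 against A-485 gave 2, A-241 with IFNγ against IFNγ gave 1 and the averaged difference 4. With 2 surrogate variables, 1 member was called higher for A-485 against DMSO and 1 for IFNγ against DMSO, and 1 lower for A-485 averaged and 1 for A-485 with IFNγ against IFNγ. With each library left out in turn the 6 counts ranged from 1 to 4, 1 to 1, 0 to 4, 0 to 1, 7 to 11 and 2 to 6, and all other counts stayed at 0. The cause of these shifts was not tested. Without DMSO replicate 3 and IFNγ replicate 2, the shares of all genes called lower were 6.52%, 1.48%, 5.88%, 1.24%, 9.76% and 3.03%, in the same order. For the other settings of this section, shares over all genes are not given. Those counts are therefore not set against all genes.

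Replicate numbers did not pair the libraries, since every same-numbered correlation of deviations was over 0.1 in 2 of 15 pairs of conditions (range -0.804 to 0.477) and a library correlated best with its own number in 32 of 90 cases. With the replicate number as a block the 6 counts were 4, 1, 2, 1, 7 and 4.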
